A study of Homo sapiens with 24 samples.

Results

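The genes described here are chromatin remodelers and histone lysine enzymes, taken from a table of 26450 genes by symbol. A symbol had to start with CHD, ARID or KDM and a digit, with SMARC, KMT2, KMT5 or SETD, or be ATRX or ATAD2. Of 72 such symbols without a hyphen, 70 had 3 or more of the 24 libraries at 1 FPKM or higher, and these 70 are the members. FPKM is the number of sequenced fragments per kilobase of a transcript, relative to the depth of the library. SETDB2 lay just inside the minimum, with 3 libraries at 1 FPKM or more and a highest value of 1.15 FPKM. The 2 symbols outside it were ARID3C, with a highest value of 0.803 FPKM, and KDM4E, with 0.0219 FPKM. A further 8 symbols with a hyphen, which name antisense or divergent transcripts, were left out. Whether strand was used in the counting is not stated in any source at hand. A transcript of this kind and its neighbour among the members therefore cannot be told apart.

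RNA was sequenced from 2 human cell lines, PANC-1, derived from a carcinoma of the pancreatic duct and epithelial in kind, and HEK293T, an embryonic kidney line transformed with adenovirus DNA and carrying a viral large T antigen. Each line was grown as a flat 2D culture, as aggregates in AggreWell microwells, and as spheroids kept within dual-axis rotating capillary containers, called DRCC here, at a speed of 1 rpm or 30 rpm, with 3 libraries in each of these 8 groups. The labels name no drug, no engineered change and no culture time for any group. They do not say whether the 3 libraries of a group came from separate cultures, so every p-value rests on the spread among these libraries alone, and that spread may be technical.

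Libraries held 32021638 to 39556154 fragments, and those from DRCC were shallower than those from 2D in both lines. The 7 genes listed as PANC-1 markers, keratins among them and led by S100A6, summed to 1944 to 2579 FPKM in PANC-1 libraries. Of the 7, 6 reached 1 FPKM in at least 1 PANC-1 library. Their sum was 10.4 to 16.1 FPKM in HEK293T libraries. The 6 measured genes of a HEK293T list summed to 72.7 to 83.6 FPKM in HEK293T and to 9.62 to 16.1 FPKM in PANC-1. Markers of blood cells stayed at or below 1.99 FPKM in sum and those of endothelium at or below 0.0491 FPKM in every library, while the 4 fibroblast markers, led by COL1A1, summed to 3.48 to 13.5 FPKM. Since the libraries are bulk RNA, fewer cells of one kind and less of a transcript per cell cannot be told apart.

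Chromatin remodelers are motor proteins that use ATP to slide, evict or exchange nucleosomes. SWI/SNF complexes open promoters and enhancers, ISWI complexes space nucleosomes evenly, and CHD proteins act in transcription elongation, at enhancers and, with histone deacetylases, in the repressive NuRD complex. Histone lysine methyltransferases and demethylases write and remove methyl groups on histone tails, such as the marks on H3 lysine 4 at active promoters and enhancers, on H3 lysine 27 at genes silenced by Polycomb, and on H4 lysine 20 in compacted chromatin. Most of these enzymes are expressed in nearly all cells, and many are altered in cancers.

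The 70 members ranged widely in level. KDM1A, the flavin-dependent demethylase of H3 lysine 4, had the highest mean over all libraries at 53.9 FPKM. It was followed by CHD4, the motor of NuRD, at 47.5 FPKM, KDM5C, a demethylase of H3 lysine 4, at 38.3 FPKM, and SMARCC1, a scaffold of SWI/SNF, also at 38.3 FPKM. In 2D culture the lines already differed in 65 of 70 members. Of these, 41 were higher in HEK293T and 24 in PANC-1, where 90.7% of all 13392 genes tested differed, 56.1% higher in HEK293T and 34.7% higher in PANC-1, so this count says little about the members as a class. All tests were made with limma on log2(FPKM + 1), and members are said to rise, fall or differ where the p-value adjusted over all genes tested was under 0.05. With median-ratio scaling, which recentres each library on its typical gene, the split was 35 and 29, with quantile normalization 36 and 29, and with a trend in GC content and length removed 47 and 17.

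The lines differed in 2D in both alternative motors of SWI/SNF. SMARCA4 (BRG1) stood at 2.51, 2.67 and 2.51 FPKM in the PANC-1 2D libraries and at 56.2, 52.7 and 54.7 FPKM in those of HEK293T. That was 21.3-fold higher in HEK293T, a log2 difference of 3.96 ± 0.04 (SE, adjusted p = 3.43e-26). SMARCA2 (BRM), the other motor, read 0.955, 1.01 and 1.14 FPKM in PANC-1 2D and 3.32, 3.71 and 3.58 FPKM in HEK293T 2D. Both motors were thus low in PANC-1, and neither line's libraries overlapped those of the other. The subunits SMARCD3 (15.95 ± 0.196 against 1.5 ± 0.377 FPKM, mean ± SD, n = 3) and SMARCD2 (65.2 ± 0.902 against 17.8 ± 0.276 FPKM) were also higher in HEK293T 2D, as was KMT5C, a methyltransferase of H4 lysine 20 (9.71 ± 0.544 against 2.08 ± 0.167 FPKM).

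Other members were at their highest in PANC-1. CHD5, a CHD protein of the NuRD branch known mainly from neurons, read 13.3, 13.4 and 13.7 FPKM in PANC-1 2D and 0.0287, 0.0494 and 0.0309 FPKM in HEK293T 2D, and its mean stayed at or below 0.602 FPKM in all 4 HEK293T groups. In PANC-1 its group means ran from 13.5 to 15.9 FPKM. ATAD2, an AAA ATPase with a bromodomain, stood at 31.03 ± 0.807 FPKM in PANC-1 2D against 4.55 ± 0.2297 FPKM in HEK293T 2D, 6.82-fold lower in HEK293T. SMARCA1, the ISWI motor SNF2L, read 32.5 ± 0.593 against 6.6 ± 0.172 FPKM and KMT5B, the partner enzyme of KMT5C on H4 lysine 20, 7.76 ± 0.146 against 2.51 ± 0.04796 FPKM. The adjusted p of these 4 differences was at most 2.11e-20.

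Most members differed from 2D culture in each other format, and more of them rose than fell. In PANC-1, 69 members could be tested (KDM4C was under the minimum in that line). In AggreWell 48 rose and 11 fell, against 70% of all 11585 genes called, 45.9% higher and 24.1% lower. At 1 rpm 45 rose and 17 fell (86.2% of all genes called, 52.3% higher and 33.9% lower). At 30 rpm 37 rose and 19 fell (85.8% of all genes called, 53.6% higher and 32.2% lower). The members' median log2 change was 0.21, 0.38 and 0.12 in that order, against 0.10, 0.15 and 0.17 for all genes tested. The share of members called was near that of all genes at 1 rpm and 30 rpm, and the surplus of rises was larger among the members in AggreWell and at 1 rpm.

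In HEK293T more members rose than fell as well. There 68 members were tested, without CHD5 and SETDB2. In AggreWell 41 rose and 8 fell (75.4% of all 12548 genes called, 48.6% higher and 26.8% lower). At 1 rpm 36 rose and 22 fell (84.8% of all genes called, 53.1% higher and 31.7% lower), and at 30 rpm 34 rose and 26 fell (85.0%, 49.6% higher and 35.5% lower). Median log2 changes of the members were 0.16, 0.19 and 0.12, and those of all genes 0.12, 0.18 and 0.13. At 1 rpm and 30 rpm the members' balance therefore lay close to that of all genes in this line.

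The balance of rises and falls depended on the scaling, and the median of all genes lay 0.10 to 0.18 above 0. With median-ratio scaling the rises and falls in PANC-1 became 35 and 14 in AggreWell, 39 and 23 at 1 rpm and 25 and 30 at 30 rpm. In HEK293T they became 30 and 18, 32 and 31, and 33 and 29. Quantile normalization gave 36 and 17, 37 and 23, and 25 and 34 in PANC-1, and 31 and 17, 31 and 29, and 31 and 32 in HEK293T. What was left of the surplus under both was in AggreWell and in PANC-1 at 1 rpm, while at 30 rpm it turned in PANC-1 and was close to even in HEK293T. With a length trend removed, the splits in HEK293T were 32 and 13 in AggreWell, 34 and 30 at 1 rpm and 31 and 29 at 30 rpm. In PANC-1 they were 40 and 12, 41 and 20, and 37 and 18, so the surplus at 30 rpm was kept. Removal of a GC and length trend gave 47 and 10, 44 and 18, and 40 and 17 in PANC-1. In HEK293T it gave 47 and 9, 36 and 24, and 35 and 22.

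**Figure D1:**
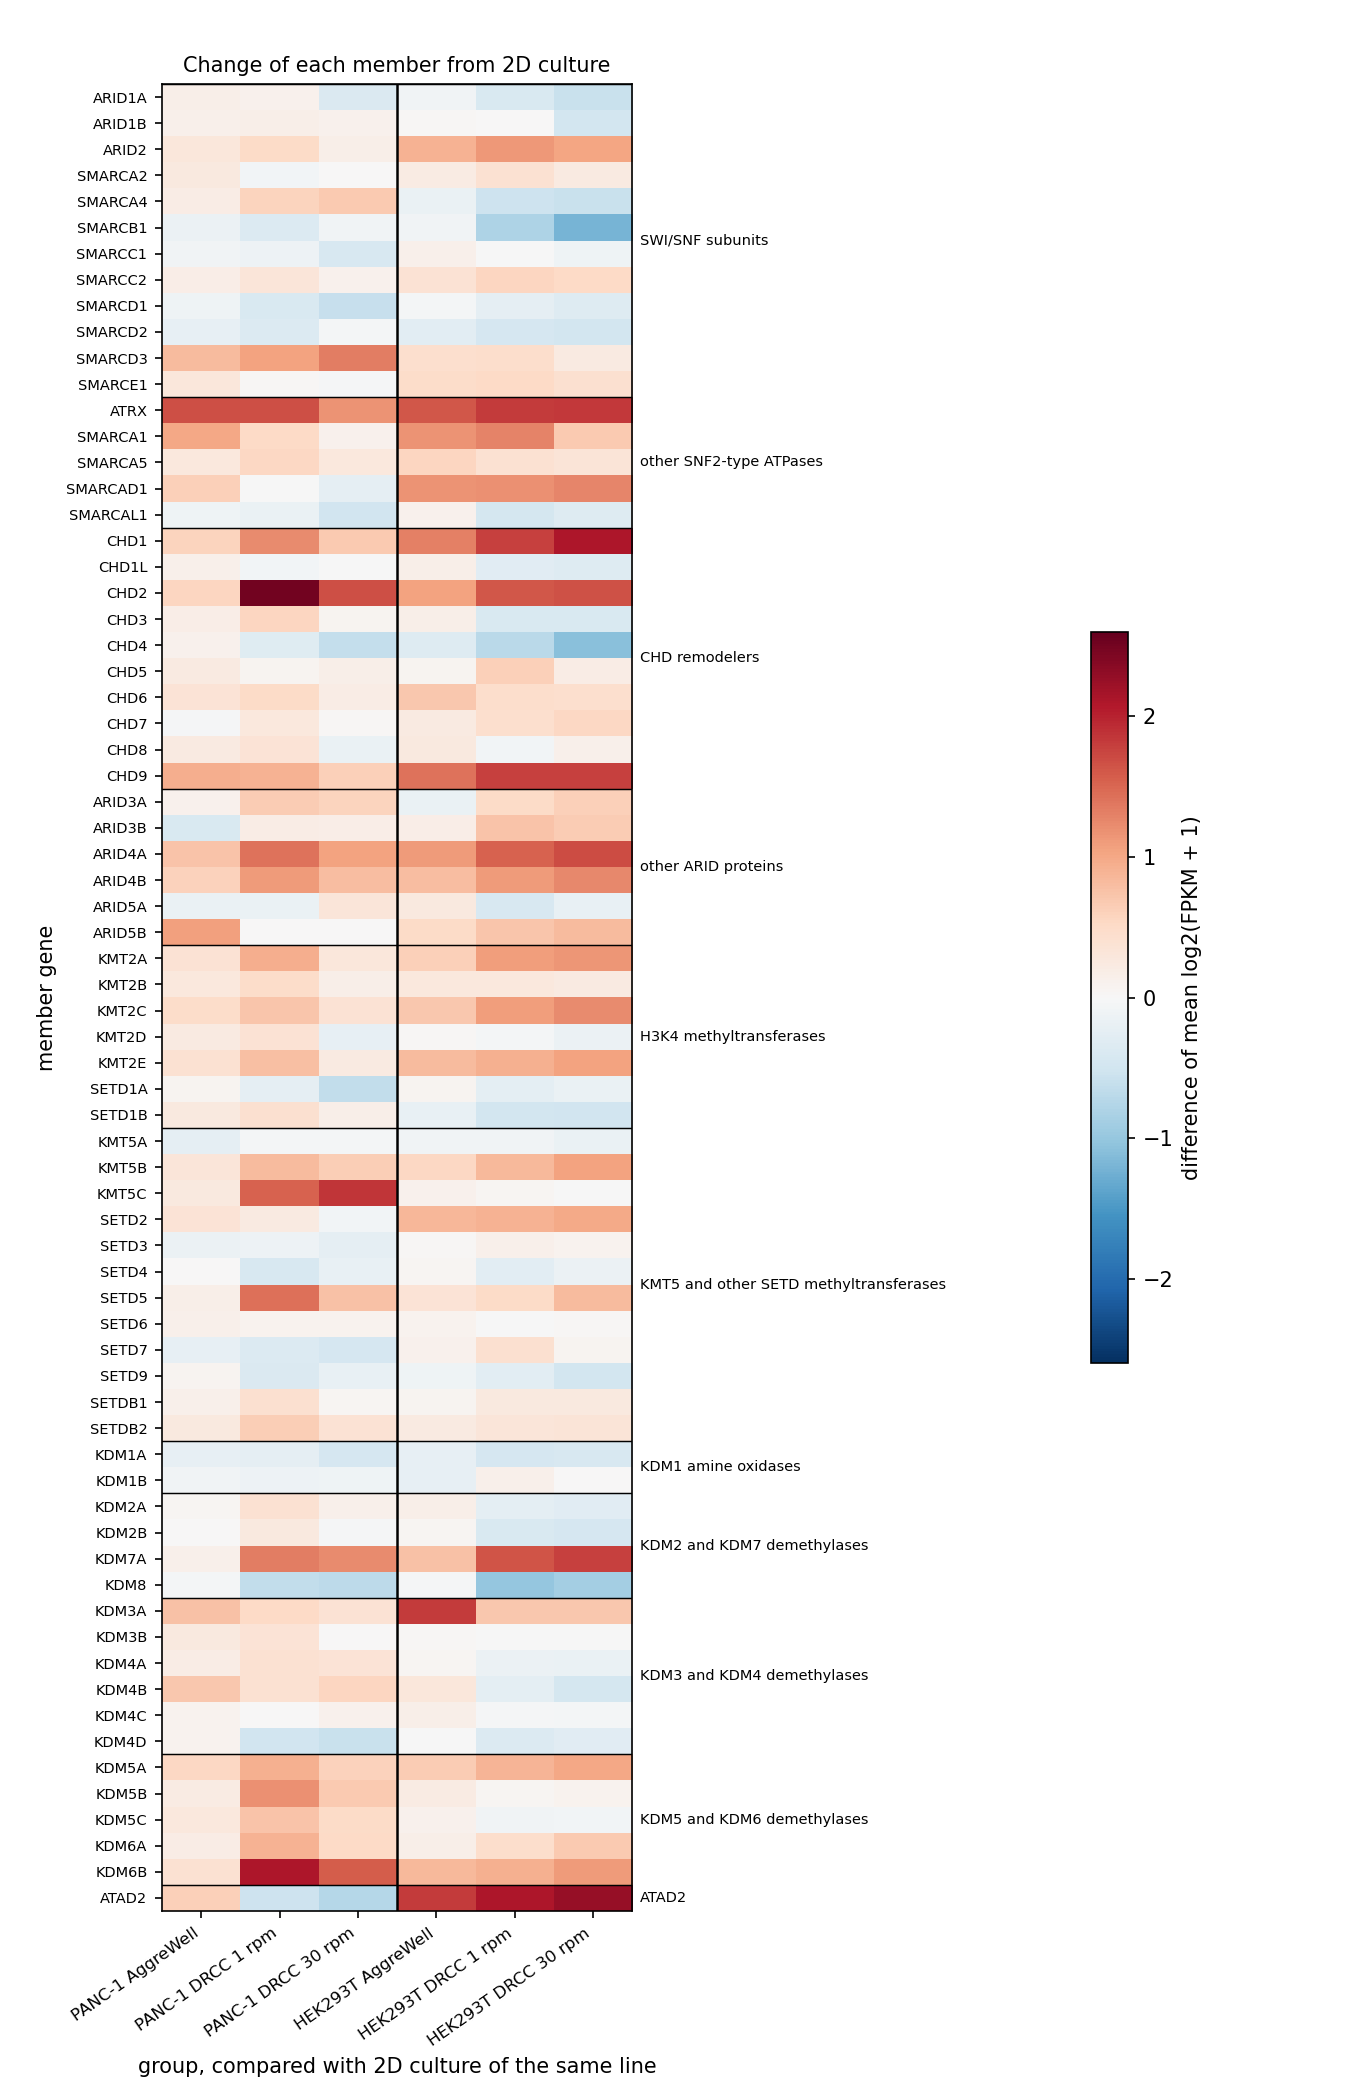
Difference of mean log2(FPKM + 1) from 2D culture of the same line for each of the 70 members (rows, grouped by family) in AggreWell, DRCC 1 rpm and DRCC 30 rpm of each line (columns). ATRX is higher in all 6 columns, CHD2 and KDM6B are darkest in PANC-1 at 1 rpm, and ATAD2 is higher in HEK293T but lower in PANC-1 DRCC.

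Across the lines, which share no libraries, the direction was often the same. Of 67 members tested in both, 35 rose in both in AggreWell, 28 at 1 rpm and 25 at 30 rpm. Falls in both lines were fewer, at 4, 12 and 13 members. Of all genes, 45.9%, 52.3% and 53.6% rose in PANC-1 and 48.6%, 53.1% and 49.6% in HEK293T, in the same order. Falls were 24.1%, 33.9% and 32.2% of all genes in PANC-1 and 26.8%, 31.7% and 35.5% in HEK293T. Shared directions were not counted over all genes, so these counts say little about the members as a class. The 4 called as falls in both in AggreWell were KDM1A, KDM1B, SMARCB1 and SMARCD2, named because they were so few. For SMARCB1 the fall in HEK293T was small (log2 -0.09 ± 0.04, adjusted p = 0.0396), its libraries overlapped those of 2D, and the call was lost with quantile normalization (log2 -0.04, adjusted p = 0.365) and without any 1 of 5 of the 6 libraries compared. Opposite calls were made for 6, 13 and 11 members. Each of these also differed between the lines in a test of the difference itself. That outcome is close to certain for members picked by opposite calls in the same libraries, so it adds no support.

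The families are taken in turn below, and members beyond those picked by the naming rule were chosen after their values were seen. Unless said otherwise, a member said to rise or fall from 2D kept its direction and call under median-ratio scaling, quantile normalization, voom on the recovered fragments and removal of a length trend or of a GC and length trend. ATRX, a remodeler that deposits histone H3.3 with DAXX at telomeres and heterochromatin, rose in all 6 comparisons with 2D. In PANC-1 the 2D libraries read 3.44, 3.402 and 3.78 FPKM and the AggreWell libraries 13.9, 13.02 and 13.3 FPKM. At 1 rpm they read 13.3, 14 and 13.4 FPKM, and at 30 rpm 9.297, 9.14 and 9.12 FPKM. All 9 spheroid and aggregate libraries were above all 3 of 2D, and 30 rpm lay between 2D and the rest. The log2 changes from 2D were 1.67 ± 0.04, 1.68 ± 0.04 and 1.17 ± 0.04 (adjusted p at most 4.08e-12).

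In HEK293T, ATRX read 1.75, 2.29 and 1.55 FPKM in 2D and 7.54, 8.27 and 7.25 FPKM in AggreWell. It reached 8.55, 10.03 and 8.45 FPKM at 1 rpm and 9.64, 9.02 and 9.098 FPKM at 30 rpm. The rise was 4.12-fold in AggreWell, 4.84-fold at 1 rpm and 4.97-fold at 30 rpm, with no overlap with 2D. The libraries of 1 rpm and 30 rpm overlapped, and those of AggreWell were the lowest of the 3 groups outside 2D.

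The remaining SNF2-type motors moved less evenly. SMARCA1 rose from 32.5 ± 0.593 FPKM in PANC-1 2D to 66.2 ± 0.721 FPKM in AggreWell, the highest level of any group, and stood at 46.7 ± 1.53 FPKM at 1 rpm and 35.1 ± 0.931 FPKM at 30 rpm. In HEK293T it rose from 6.6 ± 0.172 FPKM to 16.1 ± 0.848, 17.5 ± 0.959 and 11.2 ± 0.0632 FPKM in the same order. SMARCAD1, a remodeler that keeps heterochromatin through replication, rose in HEK293T by log2 1.17 ± 0.05, 1.18 ± 0.05 and 1.28 ± 0.05. In PANC-1 it rose in AggreWell (0.63 ± 0.04) and fell at 30 rpm (-0.24 ± 0.04), while at 1 rpm the change was -0.02 ± 0.04 (adjusted p = 0.644). SMARCA5, the ISWI motor SNF2H, changed by log2 0.54 ± 0.03 at most in PANC-1 and 0.56 ± 0.03 at most in HEK293T.

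Within SWI/SNF the subunits did not move as one. Of the PANC-1 members, 8 of 12 rose and 4 fell (4 and 4 with median-ratio scaling) in AggreWell, 6 of 12 rose and 4 fell (4 and 6 with median-ratio scaling) at 1 rpm and 5 of 12 rose and 4 fell (2 and 6 with median-ratio scaling) at 30 rpm. For HEK293T, 6 of 12 rose and 3 fell (4 and 6 with median-ratio scaling), 5 of 12 rose and 5 fell (5 and 7 with median-ratio scaling) and 5 of 12 rose and 7 fell in that order. Of all genes, 45.9% to 53.6% rose and 24.1% to 33.9% fell over the 3 PANC-1 comparisons. In HEK293T 48.6% to 53.1% rose and 26.8% to 35.5% fell. The motor SMARCA4 moved apart in the lines. In PANC-1, where it was low, it read 4.05, 4.17 and 4.71 FPKM at 1 rpm and 5.04, 4.69 and 4.36 FPKM at 30 rpm, all above the 2D libraries given above. In HEK293T it fell to 38.5, 35.9 and 37.6 FPKM at 1 rpm and 35.8, 36.2 and 36.1 FPKM at 30 rpm, all below 2D. The changes at 30 rpm were 0.68 ± 0.06 in PANC-1 and -0.58 ± 0.03 in HEK293T on the log2 scale, and the difference between the lines was -1.26 ± 0.06 (adjusted p = 7.63e-14). SMARCA2 stood at 1.03 FPKM in PANC-1 2D, with group means of 0.932 to 1.44 FPKM, and at 3.54 to 4.97 FPKM in HEK293T.

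SMARCB1 (SNF5), the core subunit lost in rhabdoid tumours, fell furthest in HEK293T. Its libraries there read 38.1, 35.2 and 37.7 FPKM in 2D, 34.05, 34.9 and 35.2 FPKM in AggreWell, 21.3, 20.04 and 20.6 FPKM at 1 rpm and 15.03, 15.6 and 15.8 FPKM at 30 rpm. The DRCC libraries lay below all others and those of 30 rpm below those of 1 rpm, with a 2.39-fold fall at 30 rpm (log2 -1.21 ± 0.04, adjusted p = 3.19e-12). In PANC-1 the same gene moved between 8.97 ± 0.189 FPKM at 1 rpm and 11.8 ± 0.265 FPKM in 2D. SMARCD3, a subunit known from heart and muscle, rose in every group outside 2D in both lines. In PANC-1 its libraries read 1.66, 1.07 and 1.77 FPKM in 2D and 5.03, 5.04 and 5.59 FPKM at 30 rpm (log2 1.33 ± 0.09), and in HEK293T the means were 15.95 and 18.8 FPKM. Its paralog SMARCD1 fell in PANC-1 from 27.1 ± 1.11 FPKM to 20.4 ± 1.17 FPKM at 1 rpm and 17.5 ± 0.0753 FPKM at 30 rpm. The scaffold SMARCC1 had the highest mean of the subunits over all libraries. Its group means lay between 25.03 and 33.6 FPKM in PANC-1 and between 42.9 and 50.6 FPKM in HEK293T. In each HEK293T group SMARCD2 was higher, at 65.2 FPKM in 2D, 54.1 in AggreWell, 48.2 at 1 rpm and 46.5 at 30 rpm.

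The ARID subunits of SWI/SNF also parted. ARID1A, the DNA-binding subunit often mutated in carcinomas, fell at 30 rpm by log2 0.37 in PANC-1 and 0.59 in HEK293T. ARID2, which marks the PBAF form of the complex, rose in HEK293T from 1.89 ± 0.08704 to 4.38 ± 0.0845, 5.305 ± 0.234 and 4.89 ± 0.17 FPKM. Outside SWI/SNF, ARID4A and ARID4B, both RB-binding proteins of the SIN3 corepressor, rose in all groups of both lines. ARID4A went from 0.657 ± 0.103 to 3.405 ± 0.139 FPKM at 1 rpm in PANC-1 and from 0.6499 ± 0.0677 to 4.35 ± 0.214 FPKM at 30 rpm in HEK293T. ARID5B, a cofactor of the demethylase PHF2, read 3.54, 3.43 and 3.56 FPKM in PANC-1 AggreWell against 1.01, 1.23 and 1.23 FPKM in 2D, with no overlap. At 1 rpm and 30 rpm it was back at 1.17 ± 0.127 and 1.18 ± 0.0133 FPKM (adjusted p = 0.901 and 0.755 against 2D). ARID3B, a relative of the B-cell factor Bright, fell in PANC-1 AggreWell from 6.33 ± 0.296 to 4.56 ± 0.532 FPKM. In HEK293T it rose from 13.7 ± 0.306 FPKM to 23.6 ± 1.01 FPKM at 1 rpm and 22.3 ± 0.916 FPKM at 30 rpm, the highest levels of the ARID proteins outside SWI/SNF.

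The largest rise of any member on the log2(FPKM + 1) scale, which understates the change of low genes, was in a CHD remodeler. CHD2, which binds active genes and places H3.3, read 8.34, 8.74 and 8.51 FPKM in PANC-1 2D and 13.1, 12.7 and 13.3 FPKM in AggreWell. At 1 rpm it reached 52.5, 53.4 and 52.9 FPKM and at 30 rpm 29.6, 29.5 and 29.7 FPKM. No 2 of the 4 groups overlapped, and 1 rpm stood 6.201-fold above 2D (log2 2.5 ± 0.03, adjusted p = 2.33e-16). In HEK293T the means were 3.17 ± 0.133, 7.66 ± 0.0678, 11.8 ± 0.392 and 12.1 ± 0.117 FPKM. The rise at 1 rpm was smaller there by 0.88 on the log2 scale (adjusted p = 3.67e-14).

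CHD1, which reads methylated H3 lysine 4 and works behind the polymerase, was highest in different groups of the lines. Its PANC-1 libraries read 7.57, 7.47 and 7.86 FPKM in 2D, 18.9, 19.8 and 19.2 FPKM at 1 rpm and 13.1, 13.1 and 12.3 FPKM at 30 rpm. The HEK293T libraries read 3.38, 3.54 and 3.39 FPKM in 2D, 14.3, 14.5 and 13.98 FPKM at 1 rpm and 18.2, 18.3 and 17.9 FPKM at 30 rpm. It therefore fell from 1 rpm to 30 rpm in PANC-1 (log2 -0.55 ± 0.03) and rose in HEK293T (0.33 ± 0.03). CHD9, a little-studied remodeler of the CHD7 branch, rose from 0.724 ± 0.135 FPKM to 3.6 ± 0.166, 4.86 ± 0.2404 and 4.93 ± 0.142 FPKM in HEK293T and from 0.986 ± 0.0432 to 2.85 ± 0.0707 FPKM in PANC-1 AggreWell.

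CHD4 moved the other way. It read 91.6, 87.6 and 91.02 FPKM in HEK293T 2D, 70.9, 71.2 and 70.4 FPKM in AggreWell, 55.8, 52.95 and 56.4 FPKM at 1 rpm and 42.7, 42.1 and 40.9 FPKM at 30 rpm. Each group was below the one before it with no overlap, and 30 rpm was 2.15-fold below 2D (log2 -1.09 ± 0.03, adjusted p = 1.24e-12). In PANC-1 it fell from 34.8 ± 0.872 FPKM to 27.7 ± 0.398 FPKM at 1 rpm and 22.4 ± 0.626 FPKM at 30 rpm, with 37.6 ± 1.36 FPKM in AggreWell. Its paralog CHD3 fell in HEK293T DRCC by log2 0.41 at 1 rpm and 0.39 at 30 rpm but rose by 0.55 at 1 rpm in PANC-1. Over the whole family, 8 of 10 rose and 2 fell (7 and 3 with median-ratio scaling) in PANC-1 at 1 rpm and 5 of 9 rose and 3 fell (5 and 4 with median-ratio scaling) in HEK293T at 1 rpm. Of all genes, 52.3% rose and 33.9% fell in PANC-1 at 1 rpm, and 53.1% rose and 31.7% fell in HEK293T.

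**Figure D2:**
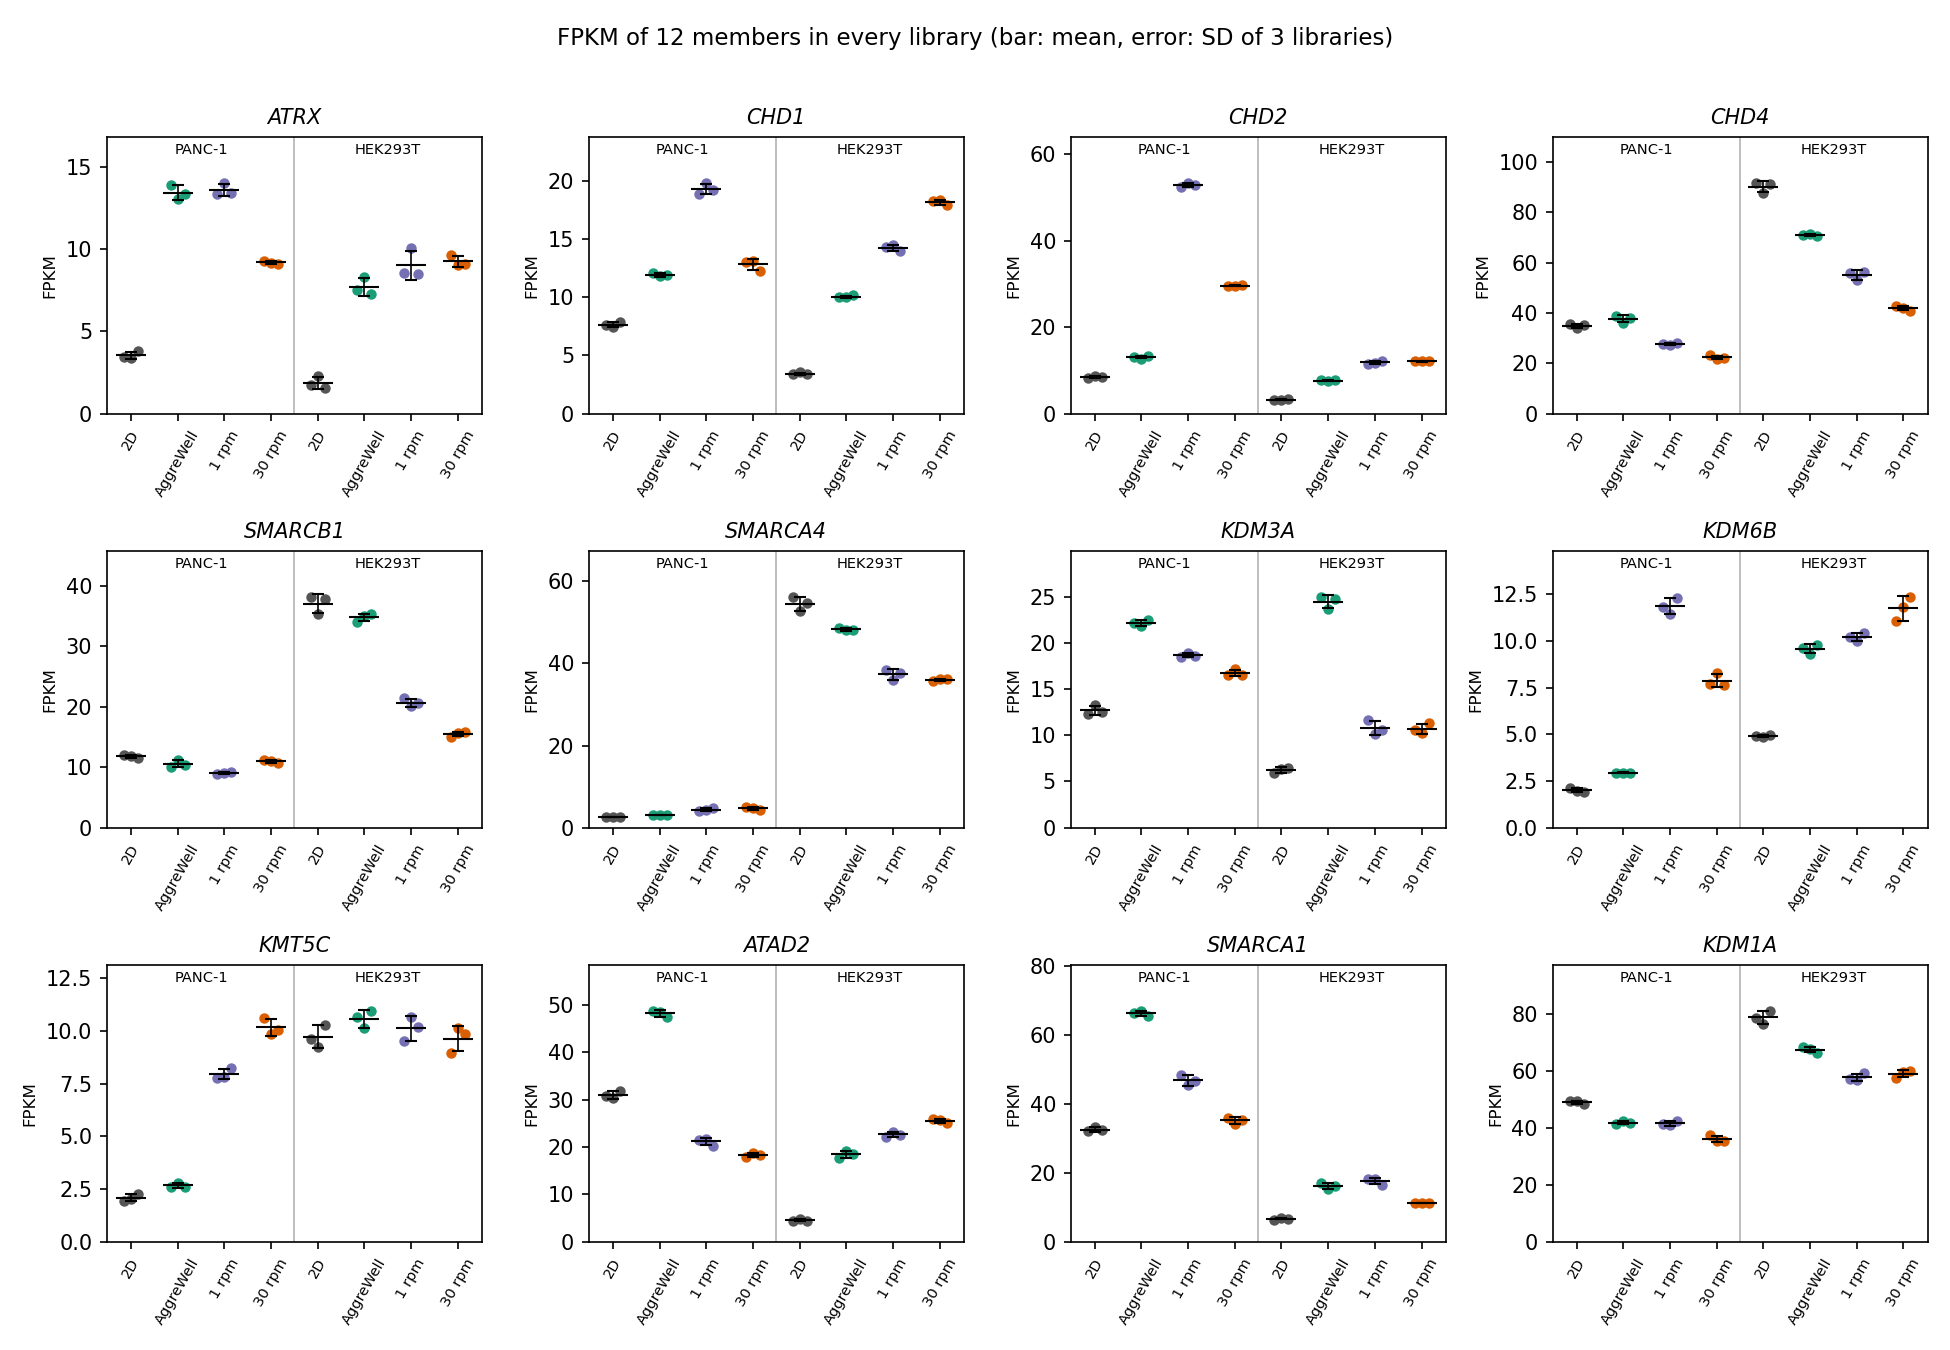
FPKM (linear axis from 0) of 12 members in each of the 24 libraries (points), with the mean (bar) and SD (whisker) of the 3 libraries of each group; PANC-1 groups are on the left of each panel and HEK293T groups on the right. CHD4 and SMARCB1 step down and CHD1 steps up across the HEK293T groups, while CHD2 and KDM6B peak in PANC-1 at 1 rpm.

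Among methyltransferases of H3 lysine 4, the large KMT2 proteins and the SETD1 pair differed. KMT2A (MLL1), which keeps HOX genes active, rose from 9.403 ± 0.279 to 18.98 ± 0.452 FPKM at 1 rpm in PANC-1 and stood at 11.8 ± 0.2 FPKM at 30 rpm. In HEK293T it rose from 4.53 ± 0.167 to 10.7 ± 0.0647 and 11.2 ± 0.337 FPKM. KMT2E, a relative without known methyltransferase activity, rose in HEK293T by log2 0.82 to 1.05. KMT2C, an enhancer methyltransferase with partial copies elsewhere in the genome whose reads the counting may have divided, rose by 0.70 to 1.23 in HEK293T. SETD1A, the catalytic subunit of a COMPASS complex, fell at 30 rpm in PANC-1 from 9.72, 8.59 and 8.85 FPKM to 5.65, 5.49 and 5.11 FPKM, with no overlap (log2 -0.65 ± 0.05, adjusted p = 1.55e-08). In HEK293T its means ran from 16.1 to 20.6 FPKM, which makes it the most abundant of these enzymes over all libraries. SETD1B, its paralog, fell in HEK293T by 0.20 in AggreWell, 0.48 at 1 rpm and 0.50 at 30 rpm. Counted together, 6 of 7 rose and 1 fell in PANC-1 at 1 rpm and 4 of 7 rose and 3 fell in HEK293T at 30 rpm. Of all genes, 52.3% rose and 33.9% fell in the first of these comparisons, and 49.6% rose and 35.5% fell in the second.

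The enzymes of H4 lysine 20 separated by line. KMT5C, which adds further methyl groups in heterochromatin, read 1.94, 2.04 and 2.27 FPKM in PANC-1 2D and 2.58, 2.795 and 2.61 FPKM in AggreWell. In DRCC it read 7.78, 7.82 and 8.24 FPKM at 1 rpm and 10.6, 9.84 and 10.1 FPKM at 30 rpm. The DRCC libraries were well above the others, 4.88-fold above 2D at 30 rpm (log2 1.86 ± 0.05, adjusted p = 2.88e-13). In HEK293T its means stayed between 9.63 and 10.6 FPKM, and no comparison with 2D passed the test there (log2 -0.01 ± 0.05 at 30 rpm, adjusted p = 0.854). KMT5B rose in both lines, by 0.82 at 1 rpm in PANC-1 and 1.05 at 30 rpm in HEK293T. KMT5A, which adds the first methyl group and is tied to mitosis, was the most abundant of this group and changed little, from 17.1 ± 0.372 to 14.4 ± 0.331 FPKM in PANC-1 AggreWell (log2 -0.23 ± 0.03). In HEK293T its means ran from 25.2 to 28.4 FPKM.

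Of the other SETD genes, SETD5, which binds corepressor complexes, had its peak in PANC-1 at 1 rpm. It read 6.75, 6.42 and 6.53 FPKM in 2D, 19.3, 19.1 and 19.8 FPKM at 1 rpm and 11.5, 11.98 and 11.9 FPKM at 30 rpm, with no overlap. SETD2, the methyltransferase of H3 lysine 36, rose in HEK293T by log2 0.86 in AggreWell, 0.91 at 1 rpm and 0.98 at 30 rpm. In PANC-1 SETD2 rose in AggreWell (0.35) and changed by -0.08 ± 0.04 at 30 rpm (adjusted p = 0.11). SETD7, a methyltransferase of H3 lysine 4 and of many other proteins, fell in PANC-1 from 10.5 ± 0.3702 to 8.93 ± 0.0208, 7.99 ± 0.111 and 7.47 ± 0.151 FPKM. In HEK293T it rose at 1 rpm from 10.7 ± 0.438 to 14.7 ± 0.303 FPKM. Falls at 1 rpm in PANC-1 were further seen for SETD4 (log2 -0.41 ± 0.06) and SETD9 (-0.38 ± 0.05), which are less well characterised.

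Among the demethylases the amine oxidases are given first. KDM1A fell in PANC-1 in all groups, from 49.3, 49.3 and 48.3 FPKM in 2D to 41.5, 42.4 and 41.6 FPKM in AggreWell and 37.4, 35.5 and 35.3 FPKM at 30 rpm. In HEK293T it fell from 78.7 ± 2.22 FPKM to 57.8 ± 1.19 at 1 rpm and 59 ± 1.302 FPKM at 30 rpm. Its fall in HEK293T AggreWell, to 67.4 ± 0.938 FPKM, was not called after quantile normalization or removal of a GC and length trend. KDM1B, the second amine oxidase, fell in AggreWell by log2 0.10 in PANC-1 and 0.21 in HEK293T, and the PANC-1 call was lost without any 1 of 4 of the 6 libraries compared. Its HEK293T means were 16.05 ± 0.699 FPKM in 2D, 17.8 ± 0.629 at 1 rpm and 16.2 ± 0.4397 FPKM at 30 rpm (log2 changes 0.14 ± 0.04 and 0.02 ± 0.04, adjusted p = 0.00399 and 0.703), and the change at 1 rpm turned to -0.06 with median-ratio scaling and -0.14 with a GC and length trend removed.

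KDM5 and KDM6 enzymes, which remove methyl groups from H3 lysine 4 and H3 lysine 27, rose as a group in PANC-1. All 5 rose in AggreWell (4 with median-ratio scaling or quantile normalization), all 5 at 1 rpm and all 5 at 30 rpm, the last 2 under both of these scalings too. Of all genes, 45.9% rose in AggreWell, 52.3% at 1 rpm and 53.6% at 30 rpm. The median log2 change of these 5 enzymes at 1 rpm was 0.92, against 0.15 for all genes. KDM6B (JMJD3), an inducible H3 lysine 27 demethylase, led them. Its libraries read 2.11, 1.95 and 1.92 FPKM in 2D, 2.95, 2.95 and 2.93 FPKM in AggreWell, 11.8, 11.5 and 12.3 FPKM at 1 rpm and 7.71, 8.26 and 7.62 FPKM at 30 rpm. At 1 rpm it was 5.95-fold above 2D (log2 2.1 ± 0.04, adjusted p = 3.01e-14), and no 2 groups overlapped. In HEK293T it rose from 4.91 ± 0.0766 to 9.58 ± 0.235, 10.2 ± 0.218 and 11.8 ± 0.657 FPKM. KDM6A (UTX), the X-linked relative, rose at 1 rpm from 3.74 ± 0.322 to 7.81 ± 0.1798 FPKM in PANC-1 and from 8.64 ± 0.161 to 12.2 ± 0.593 FPKM in HEK293T.

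KDM5B, a demethylase of H3 lysine 4 known from slowly cycling tumour cells, rose at 1 rpm in PANC-1 from 7.98 ± 0.208 to 19.5 ± 0.401 FPKM, while in HEK293T the change was 0.05 ± 0.04 (adjusted p = 0.248). KDM5C rose from 19.1 ± 0.469 to 32.6 ± 0.1098 FPKM in PANC-1 at 1 rpm. Its HEK293T mean was 51.2 ± 0.657 FPKM in 2D and 48.4 ± 0.9602 FPKM at 1 rpm, a log2 change of -0.08 ± 0.02 that turned to 0.105 with quantile normalization and 0.0638 with a GC and length trend removed. KDM5A rose in all 6 comparisons with 2D, by log2 0.54 to 1.01.

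KDM3A, an H3 lysine 9 demethylase whose gene is a known target of hypoxia-inducible factor, peaked in AggreWell. In HEK293T it read 5.88, 6.35 and 6.45 FPKM in 2D and 24.97, 23.6 and 24.7 FPKM in AggreWell, a 3.93-fold rise (log2 1.82 ± 0.05, adjusted p = 7.95e-12). At 1 rpm and 30 rpm it read 11.6, 10.2 and 10.6 and 10.5, 10.2 and 11.3 FPKM, above 2D and below AggreWell. The PANC-1 order was the same, with 12.3, 13.2 and 12.6 FPKM in 2D, 22.2, 21.8 and 22.5 in AggreWell, 18.5, 18.95 and 18.6 at 1 rpm and 16.6, 17.1 and 16.5 at 30 rpm. KDM4B, which acts on the same lysine, rose in PANC-1 AggreWell by 0.69 and at 30 rpm by 0.56, and fell in HEK293T at 30 rpm by 0.45. KDM3B, the most abundant of the KDM3 and KDM4 enzymes on average, kept group means of 16.3 to 21.04 FPKM in PANC-1 and 17.5 to 18.04 FPKM in HEK293T. KDM4D fell in PANC-1 DRCC by 0.50 at 1 rpm and 0.59 at 30 rpm.

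KDM7A, a demethylase of H3 lysine 9 and lysine 27, rose in DRCC in both lines. It went from 0.304 ± 0.0508 to 2.29 ± 0.14 and 2.05 ± 0.0758 FPKM in PANC-1 and from 2.07 ± 0.2396 to 8.57 ± 0.473 and 9.44 ± 0.147 FPKM in HEK293T. KDM8, a JmjC protein now described mainly as a hydroxylase, fell in HEK293T from 2.29, 2.35 and 1.98 FPKM in 2D to 0.732, 0.497 and 0.556 FPKM at 1 rpm. The CXXC-domain demethylases KDM2A and KDM2B fell in HEK293T at 30 rpm by log2 0.29 and 0.43. KDM2A, the more abundant, stood at 13.9 FPKM in HEK293T 2D and 11.2 FPKM at 30 rpm. In PANC-1, KDM2A rose at 1 rpm by 0.39.

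ATAD2 gave the strongest contrast between the lines in the change from 2D. It read 30.9, 30.3 and 31.9 FPKM in PANC-1 2D, 48.7, 48.6 and 47.5 FPKM in AggreWell, 21.5, 21.8 and 20.3 FPKM at 1 rpm and 17.9, 18.7 and 18.2 FPKM at 30 rpm. In HEK293T it read 4.43, 4.81 and 4.402 FPKM in 2D, 17.7, 19.2 and 18.5 FPKM in AggreWell, 22.1, 23.3 and 22.6 FPKM at 1 rpm and 25.9, 25.8 and 25.1 FPKM at 30 rpm. The gene thus rose in AggreWell in both lines, then was below 2D in PANC-1 DRCC and above it in HEK293T DRCC, with no overlap in any of these. At 30 rpm the log2 change was -0.73 ± 0.03 in PANC-1 and 2.26 ± 0.04 in HEK293T, and the lines differed by 2.99 ± 0.05 (adjusted p = 3.39e-21).

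**Figure D3:**
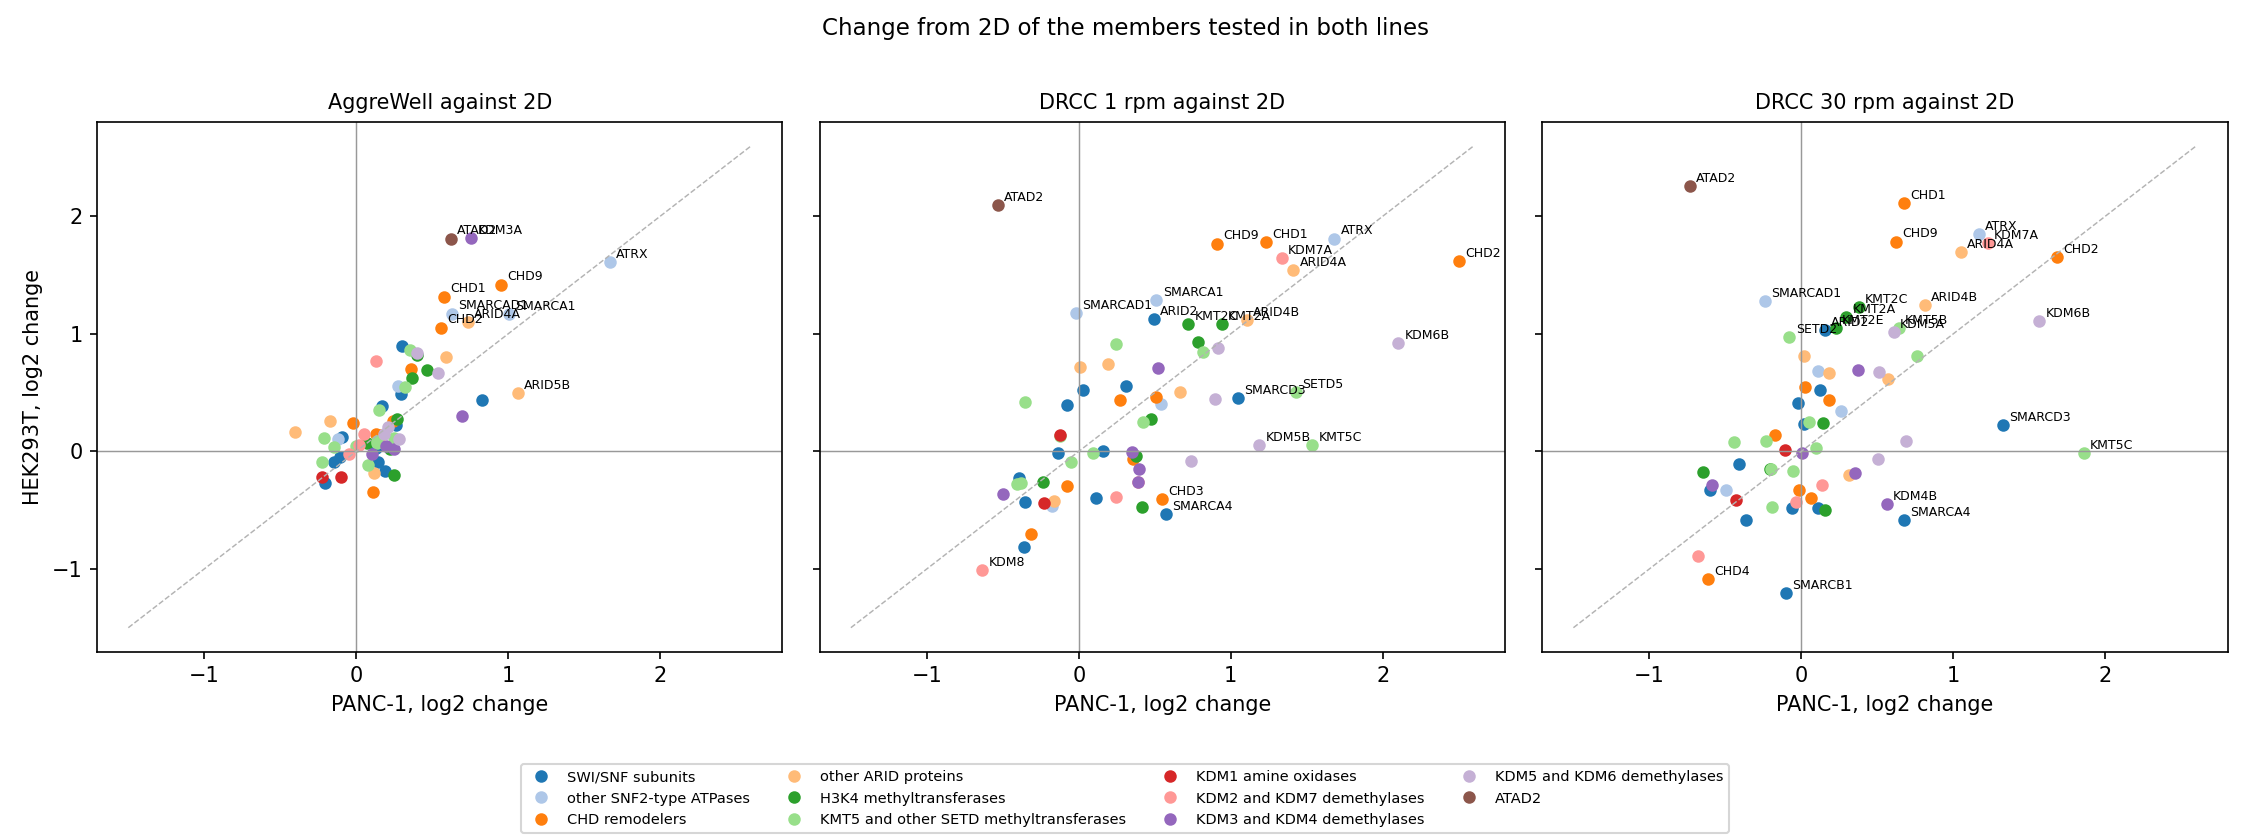
Log2 change from 2D of each member tested in both lines (points), PANC-1 on the x axis and HEK293T on the y axis, for AggreWell, DRCC 1 rpm and DRCC 30 rpm. ATRX lies high on both axes in each panel, and ATAD2 moves from the upper right in AggreWell to the upper left in DRCC.

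The response to a format was also compared between the lines, with an interaction term fitted to all 24 libraries. In AggreWell 28 of 70 members had the higher change in HEK293T and 14 in PANC-1, where 57% of all genes differed, 32% and 25% in these directions. At 1 rpm the counts were 23 and 32 (75.8% of all genes, 40% and 35.8%). At 30 rpm they were 35 and 21 (79.5%, 37.5% and 42%). The last became 30 and 28 with a length trend removed, 40 and 19 with median-ratio scaling and 36 and 21 with quantile normalization. The members' share called was close to that of all genes in each format, at 60% in AggreWell, 78.6% at 1 rpm and 80% at 30 rpm. Beside ATAD2, differences in the direction of HEK293T included SMARCAD1 at 30 rpm (1.52 ± 0.07), CHD1 at 30 rpm (1.43 ± 0.04) and KDM3A in AggreWell (1.06 ± 0.06). In the direction of PANC-1 they included KMT5C (-1.48 ± 0.07 at 1 rpm and -1.87 ± 0.07 at 30 rpm), KDM6B at 1 rpm (-1.18 ± 0.06) and KDM5B at 1 rpm (-1.13 ± 0.05). All comparisons with 2D in a line share its 3 libraries of 2D.

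More members differed between the rotation speeds in PANC-1 than in HEK293T. Between 30 rpm and 1 rpm, 9 members rose and 45 fell, against 68.1% of all genes called, of which 36.2% of all genes were higher and 31.9% lower. The members' median log2 change was -0.25, and that of all genes 0.02. Removal of a length trend gave 14 and 40, and of a GC and length trend 13 and 30, so the surplus of falls was smaller but kept its direction. The largest falls were in CHD2 (log2 -0.82 ± 0.03), SETD5 (-0.67 ± 0.03), KMT2A (-0.64 ± 0.03) and KMT2D, an enhancer methyltransferase (-0.58 ± 0.03), with adjusted p at most 1.03e-08. KMT2D read 8.096, 7.86 and 7.83 FPKM at 1 rpm and 4.84, 5.098 and 4.94 FPKM at 30 rpm. The largest rises were in ARID5A, an RNA-binding ARID protein that stabilises inflammatory transcripts (1.28 ± 0.127 to 2.19 ± 0.435 FPKM), KMT5C, SMARCD2 (0.29 ± 0.05) and SMARCD3. The rise of KMT5C, 0.32 ± 0.05, turned to -0.01 with a GC and length trend removed, and that of SMARCD3, 0.28 ± 0.09, was not called with either trend removed.

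In HEK293T the split was nearly even. Of 68, 16 rose and 15 fell, against 52.6% of all genes called, 19.6% higher and 32.9% lower. Median-ratio scaling gave 24 and 8, quantile normalization 22 and 10. SMARCA1 fell from 18.03, 18.1 and 16.4 FPKM at 1 rpm to 11.2, 11.2 and 11.3 FPKM at 30 rpm (log2 -0.60 ± 0.04, adjusted p = 5.35e-07). ARID1B, the alternative to ARID1A, fell from 7.33, 7.12 and 7.25 FPKM to 4.91, 4.87 and 4.86 FPKM, and SMARCB1 and CHD4 fell further from their 1 rpm levels (log2 -0.39 ± 0.04 and -0.38 ± 0.03). Rises were led by CHD1, SETD5 (0.31 ± 0.03), KDM6A (0.23 ± 0.04) and ARID5A (0.22 ± 0.07), the last of which was not called without replicate 2 of 30 rpm. SETD5 thus fell with speed in PANC-1 and rose in HEK293T.

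**Figure D4:**
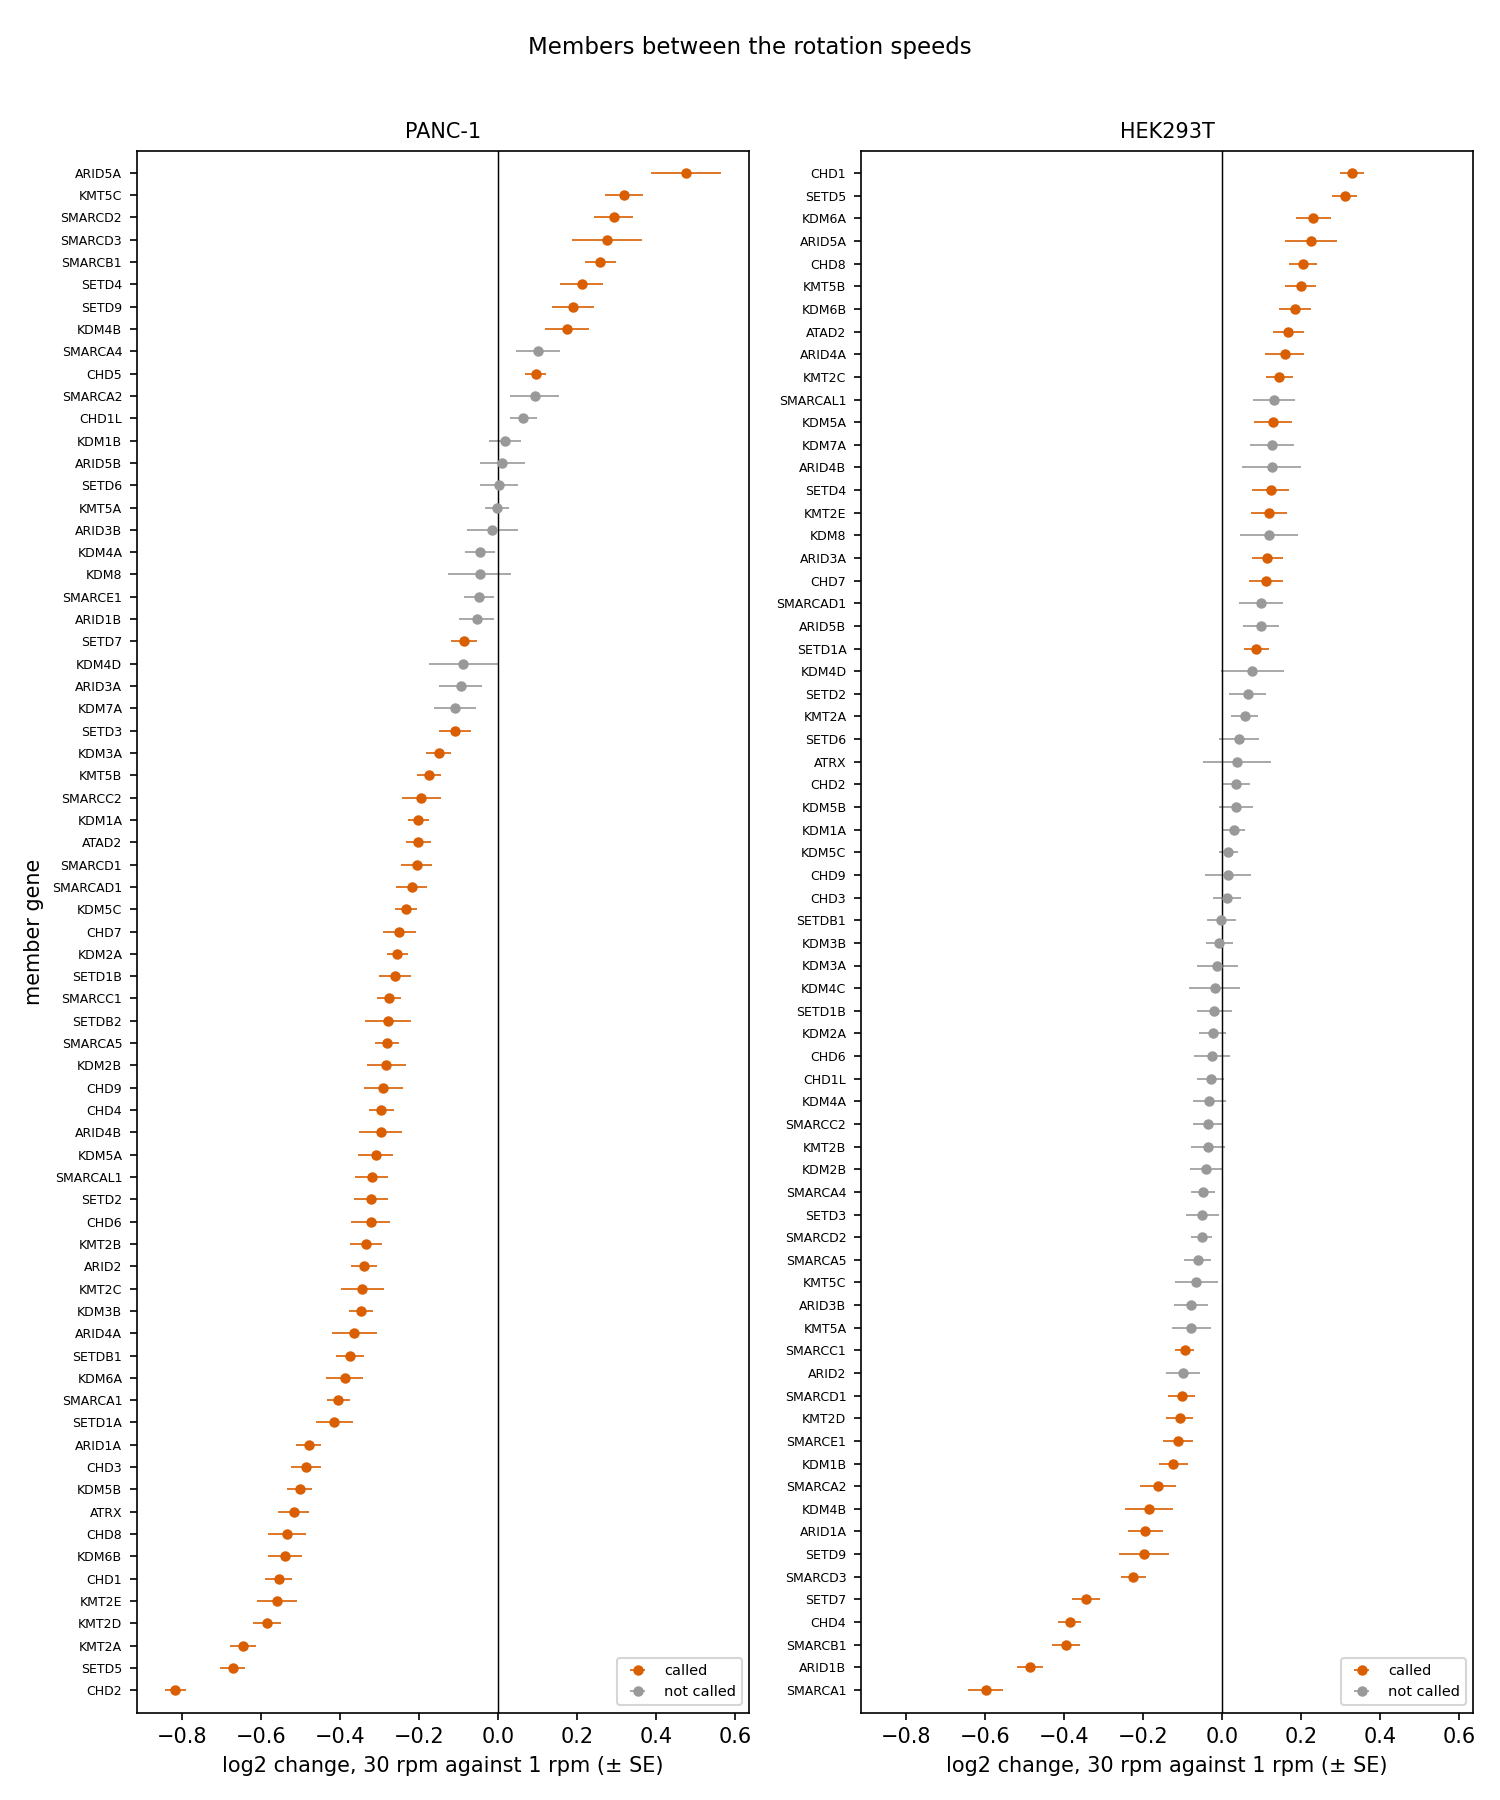
Log2 change between DRCC at 30 rpm and at 1 rpm of each member (points, with SE as bars), ordered by its size, in PANC-1 (left) and HEK293T (right); coloured points passed the test. In PANC-1 most of the points lie left of 0, with CHD2 at the lower end, while the HEK293T points lie on both sides.

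DRCC and AggreWell are both ways to grow cells away from a flat surface, and the members differed between them as well. At 1 rpm against AggreWell, 37 members rose and 21 fell in PANC-1 (82% of all genes called, 43.7% higher and 38.4% lower). In HEK293T, 26 rose and 29 fell (75.6% of all genes called, 41.8% higher and 33.8% lower). At 30 rpm 21 rose and 35 fell in PANC-1 (83.3% of all genes called, 45.4% higher and 37.8% lower). That split became 27 and 26 with a length trend removed, 18 and 39 with median-ratio scaling and 18 and 41 with quantile normalization. In HEK293T at 30 rpm 25 rose and 33 fell (78.5%, 39.9% higher and 38.7% lower). In PANC-1 the members higher in DRCC than in AggreWell were led at 1 rpm by CHD2 (1.94 ± 0.03), KDM6B (1.71 ± 0.04), KMT5C (1.29 ± 0.05) and SETD5 (1.28 ± 0.03). At 30 rpm they were KMT5C (1.61 ± 0.05), KDM6B (1.17 ± 0.04), CHD2 (1.12 ± 0.03) and KDM7A (1.1 ± 0.05). Lower at both speeds were ATAD2, ARID5B, SMARCAD1 and SMARCA1, with ATAD2 down by 1.15 at 1 rpm and 1.35 at 30 rpm.

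HEK293T showed other genes in this comparison. KDM7A (0.88 ± 0.05 at 1 rpm), ARID3A (0.69 ± 0.04) and CHD2 (0.57 ± 0.04) were higher in DRCC than in AggreWell at both speeds, ARID3B (0.58 ± 0.04) was among the leading rises at 1 rpm, and CHD1 (0.79 ± 0.03) at 30 rpm. KDM3A was lower by 1.11 at 1 rpm and 1.12 at 30 rpm, with KDM8 and SMARCB1 next. ARID5A (by 0.68 at 1 rpm) and KDM4B (by 0.75 at 30 rpm) completed the largest falls. SMARCB1 was lower than in AggreWell by 0.72 at 1 rpm and 1.12 at 30 rpm.

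The members' transcripts differ in base composition, and in HEK293T the changes went with it. GC content was taken from the longest GENCODE 29 transcript of each member, with a median of 48.0% over the 70 members and 49.2% over the genes tested. The first 90 coding bases of 3 of the 4 named rises (CHD1, ATRX and CHD9) and of 3 of the 4 named falls (SMARCB1, CHD4 and ARID1A) in HEK293T at 30 rpm are given here to show both kinds of sequence. ATAD2, the largest rise, and KDM8, the third largest fall, are not shown. The bases are printed with G and C in capitals and all other bases in lower case.

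ATRX: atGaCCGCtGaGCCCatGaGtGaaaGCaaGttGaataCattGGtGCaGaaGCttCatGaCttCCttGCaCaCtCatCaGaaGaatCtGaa
CHD1: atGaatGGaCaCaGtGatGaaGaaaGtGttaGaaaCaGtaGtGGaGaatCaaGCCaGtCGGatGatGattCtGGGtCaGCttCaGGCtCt
CHD9: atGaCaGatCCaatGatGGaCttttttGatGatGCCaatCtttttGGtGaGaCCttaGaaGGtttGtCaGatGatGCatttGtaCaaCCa
SMARCB1: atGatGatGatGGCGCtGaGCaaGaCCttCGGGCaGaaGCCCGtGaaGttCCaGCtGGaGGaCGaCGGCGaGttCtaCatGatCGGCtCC
CHD4: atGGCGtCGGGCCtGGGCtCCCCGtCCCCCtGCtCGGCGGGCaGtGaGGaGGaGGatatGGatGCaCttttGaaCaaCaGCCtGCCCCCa
ARID1A: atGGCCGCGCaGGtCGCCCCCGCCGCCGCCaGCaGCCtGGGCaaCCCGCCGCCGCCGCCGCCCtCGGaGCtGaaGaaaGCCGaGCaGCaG

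In these stretches 40 of 90 bases were G or C in ATRX, 40 in CHD1 and 34 in CHD9. The counts were 52 in SMARCB1, 59 in CHD4 and 70 in ARID1A. Over the whole coding sequence the GC content was 38.2% in ATRX, 38.99% in CHD1 and 40.9% in CHD9, against 56.3% in SMARCB1, 51.3% in CHD4 and 59.8% in ARID1A. At 30 rpm in HEK293T, 25 of 34 members below the median GC content rose and 3 fell, while 9 of 34 at or above it rose and 23 fell. Of all genes tested, 65.8% rose and 22% fell below the same GC content, while 35.1% rose and 48.7% fell at or above it.

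Over members, Spearman's rho between log2 change and GC content in HEK293T was -0.59 in AggreWell, -0.67 at 1 rpm and -0.67 at 30 rpm (Pearson's r -0.59, -0.65 and -0.64, 68 members). Over all 11771 genes with a GC value the rho was -0.26, -0.37 and -0.38. In PANC-1 the members' rho was -0.42, -0.21 and -0.11 (69 members), and that of all 10984 genes -0.23, -0.04 and 0.14. The changes from 2D went with the recovered length too. The members' rho with it was 0.38, 0.37 and 0.36 in HEK293T (0.28, 0.27 and 0.24 over all genes). In PANC-1 that rho was 0.39, 0.47 and 0.34 (0.23, 0.16 and -0.02 over all genes). These are descriptions across genes, which share libraries and depth and are not independent replicates. Between the speeds in PANC-1 the members' change went more with length: rho with the length recovered from the values was -0.54, and -0.38 over all genes, with a median length of 7124 bases in members and 3893 bases in all genes. The DRCC libraries were also shallower than those of 2D, and the part of depth in these relations was not tested. With a GC and length trend over all genes removed, ATRX, CHD1, CHD9, SMARCB1, CHD4 and ARID1A kept their calls in HEK293T at 30 rpm, but the rises were smaller. That of ATRX went from log2 1.85 to 1.01, that of CHD9 from 1.78 to 1.02 and that of CHD1 from 2.11 to 1.42.

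**Figure D5:**
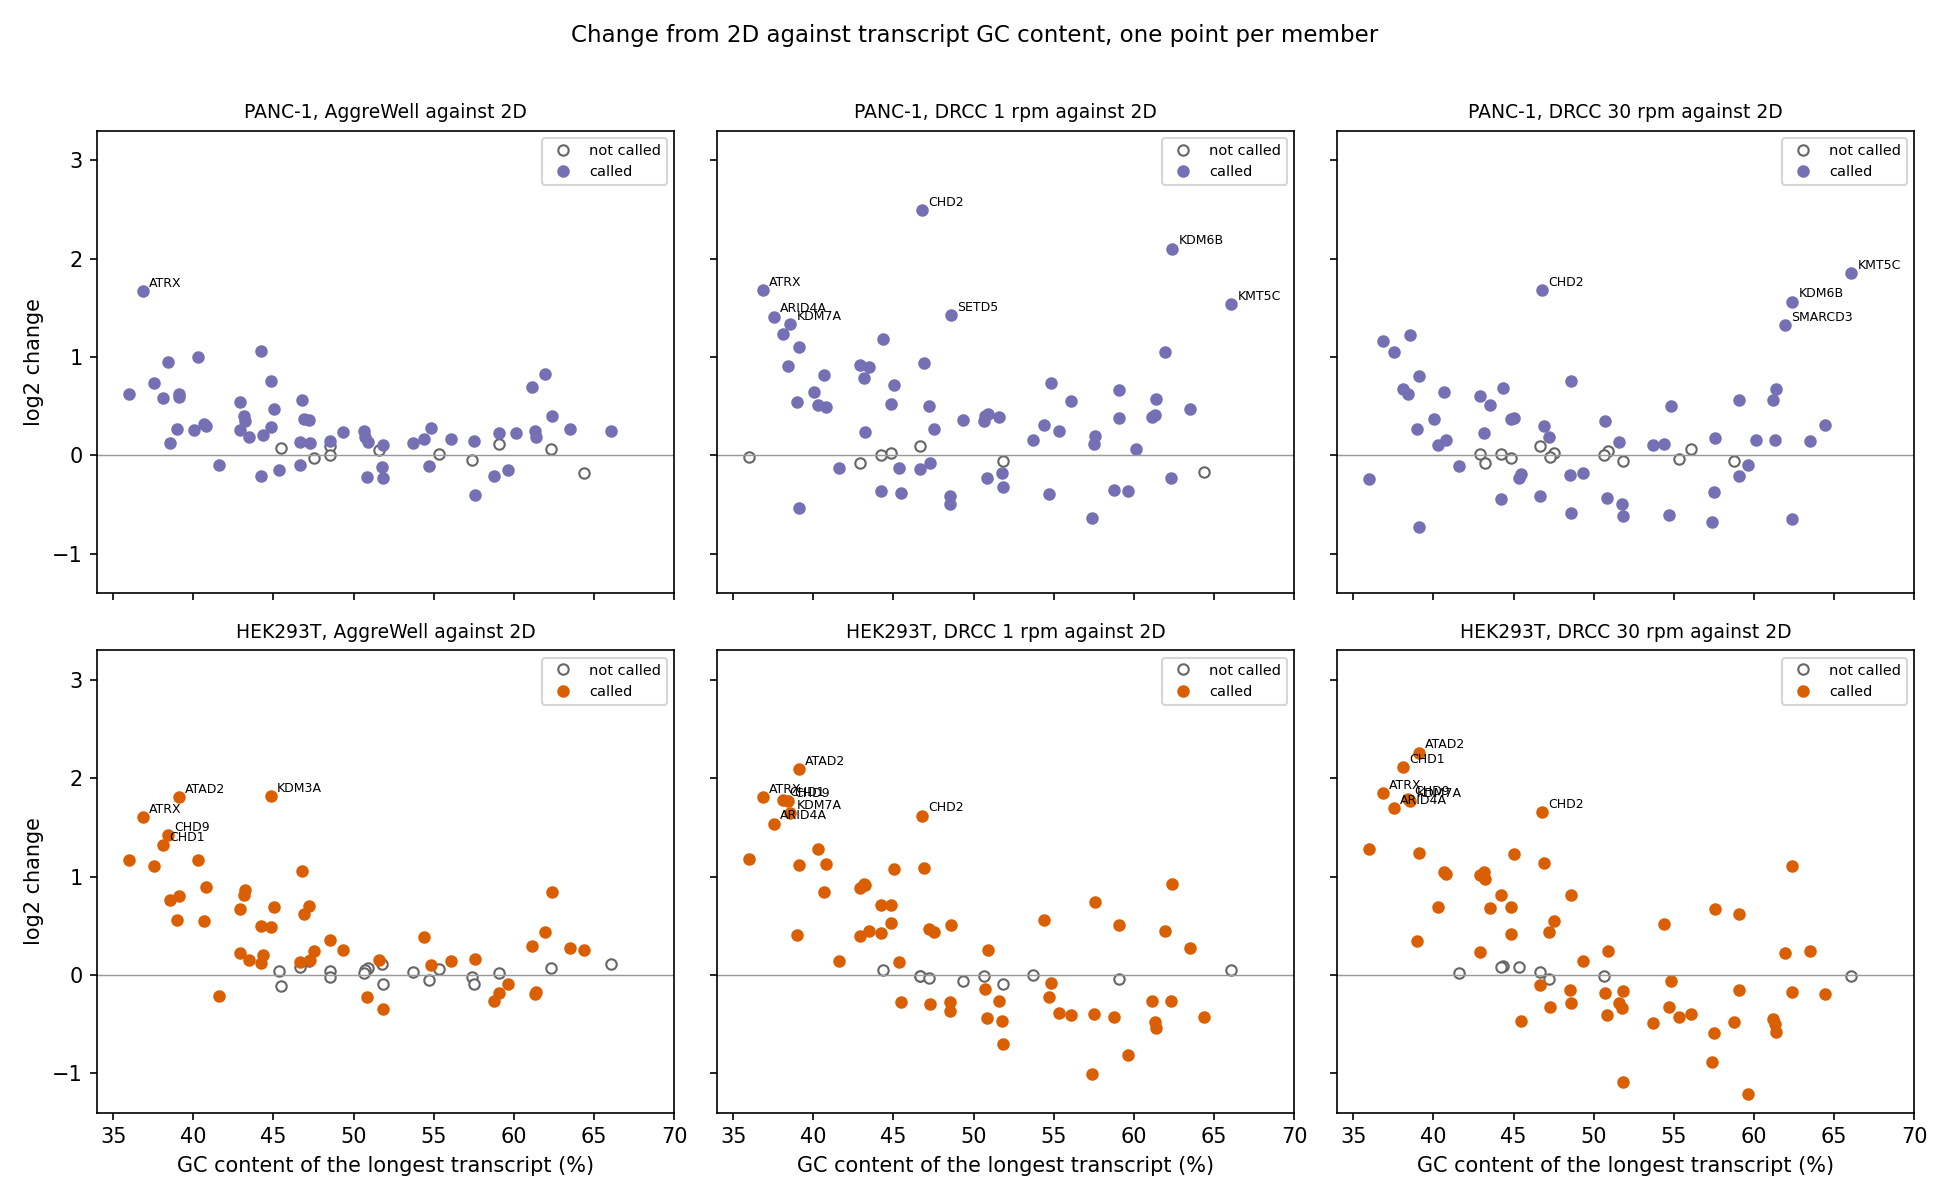
Log2 change from 2D (y axis) against GC content of the longest transcript in percent (x axis) for each member (filled: passed the test, open: did not), in PANC-1 (top) and HEK293T (bottom). In HEK293T the points fall from upper left to lower right in all 3 panels, while in PANC-1 DRCC KDM6B and KMT5C are high at the GC-rich end.

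Other genes of the same complexes, from lists that hold no member, moved in both directions, counted here with the values as deposited. The comparisons given differ between the lists, and most AggreWell counts are left out. Of all genes, 52.3% rose and 33.9% fell in PANC-1 at 1 rpm, and 53.6% and 32.2% at 30 rpm. In HEK293T at 30 rpm 49.6% of all genes rose and 35.5% fell. For AggreWell the shares of all genes were 45.9% and 24.1% in PANC-1, and 48.6% and 26.8% in HEK293T. Of the SWI/SNF partners, 6 of 15 rose and 6 fell in PANC-1 at 1 rpm, and 5 of 15 rose and 5 fell in HEK293T at 30 rpm. There ACTB, an actin that is also part of SWI/SNF, went from 1729 to 516 FPKM (log2 change -1.74 ± 0.03, adjusted p = 7.54e-15). Of the NuRD partners of CHD4, 3 of 12 rose and 2 fell in PANC-1 AggreWell. In HEK293T AggreWell 2 of 12 rose and 4 fell. At 30 rpm 3 of 12 rose and 8 fell in PANC-1, and 5 of 12 rose and 6 fell in HEK293T. The methyl-binding subunit MBD3 fell there from 37.96 to 11.7 FPKM (log2 change -1.62 ± 0.04, adjusted p = 2.34e-13), and the histone chaperone RBBP4 fell in PANC-1 from 36.9 to 16.2 FPKM (log2 change -1.14 ± 0.03, adjusted p = 1.78e-13). Among ISWI and INO80 partners, 8 of 18 rose and 9 fell in PANC-1 at 1 rpm, led by RSF1, which pairs with SMARCA5, from 4.704 to 15.8 FPKM (log2 change 1.56 ± 0.04, adjusted p = 1.70e-13).

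Polycomb repressive complex 2 writes the H3 lysine 27 mark that KDM6A and KDM6B remove. Of its 10 genes, 5 of 10 rose and 4 fell in PANC-1 at 1 rpm and 7 of 10 rose and 2 fell in HEK293T at 30 rpm. EZH1, the catalytic subunit known from resting cells, rose in PANC-1 from 2.88 to 12.3 FPKM (log2 change 1.78 ± 0.06, adjusted p = 2.25e-12) and in HEK293T at 30 rpm from 6.35 to 22.1 FPKM (log2 change 1.65 ± 0.04, adjusted p = 1.68e-13). Of COMPASS partners, which hold the KMT2 and SETD1 enzymes, 4 of 12 rose and 7 fell in PANC-1 at 1 rpm, with the core subunit WDR5 going from 16.2 to 9.54 FPKM (log2 change -0.70 ± 0.05, adjusted p = 8.06e-09). In HEK293T at 30 rpm 3 of 12 rose and 6 fell. Among the other lysine methyltransferases, 4 of 13 rose and 8 fell in PANC-1 at 30 rpm, where SUV39H1, an H3 lysine 9 methyltransferase, fell from 18.6 to 7.02 FPKM (log2 change -1.29 ± 0.03, adjusted p = 2.28e-13). Of the other JmjC proteins, 2 of 7 rose and 5 fell in HEK293T at 30 rpm, and JMJD1C, a relative of KDM3A, rose there from 0.362 to 6.41 FPKM (log2 change 2.44 ± 0.05, adjusted p = 1.63e-13).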

How the data were processed

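RNA of PANC-1 and HEK293T cells in 8 groups of 3 libraries, grouped by the labels, was described from 1 table of FPKM values deposited by the authors (0 columns unused). The submitters' processing notes name fastp, HISAT2, HTSeq and R 3.2.0, with roles not given, and the build mm10. The table holds human symbols, so no coordinates were used. FPKM is relative to each library's total, so abundant genes that change shift the others. Fragments were recovered as whole multiples (tolerance 0.01) for 26449 of 26450 genes, which gave totals of 32021638 to 39556154 per library.

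Values were tested as log2(FPKM + 1), pseudocount 1, with limma 3.58.1 (intensity trend) in R 4.3.3, and summarised with pandas 2.3.3 under Python 3.11.15. Genes needed 1 FPKM or more in 3 or more of the libraries fitted. One fit per line used 12 libraries and gave 6 comparisons, and a joint fit of 24 gave the line difference and 2D against 2D. P-values were adjusted by Benjamini-Hochberg within a comparison over all genes, with calls under 0.05. A fold is a ratio of mean FPKM. The alternatives tried were other scalings, pseudocounts and filters, a replicate block, voom on recovered fragments and each library left out. Removal of a trend in the recovered length was a further one. Removal of a GC and length trend was added after seeing the data. It took out a GC trend first and then a trend in GENCODE transcript length.

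The members and all lists were chosen with earlier results of these data known. Named were the most abundant member of each family with ATRX, ATAD2, KDM6A, KDM6B, SMARCA4 and SMARCA2. Per comparison, up to 4 largest rises and 4 largest falls were also named among called members without overlap whose higher group averaged 2 FPKM or more. Partner lists were given by counts with the called gene of largest change. Marker lists were for PANC-1, HEK293T, blood, endothelium and fibroblasts.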

Additional observations from a re-analysis of the deposited data

Results flagged for a closer look

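The responses below differed between the lines in a test of the difference itself, the interaction of line and format over all 24 libraries (limma, adjusted p under 0.05). Each value is the log2 change from 2D in HEK293T minus that in PANC-1, so a positive value means a higher change in HEK293T. The share of all genes that differed in this way was 57% in AggreWell, 75.8% at 1 rpm and 79.5% at 30 rpm.

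In AggreWell the difference was 1.19 for ATAD2, 1.06 for KDM3A, 0.74 for CHD1 and 0.63 for KDM7A. It was -0.57 for ARID5B, -0.45 for CHD4, -0.45 for SETD1B and -0.40 for KDM4B. KDM3A and ATAD2 rose in AggreWell in both lines and more in HEK293T, and ARID5B rose in both and more in PANC-1.

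At 1 rpm the difference was 2.62 for ATAD2, 1.2 for SMARCAD1, 0.86 for CHD9 and 0.78 for SETD7. It was -1.48 for KMT5C, -1.18 for KDM6B, -1.13 for KDM5B and -1.11 for SMARCA4. ATAD2 and SETD7 fell in PANC-1 and rose in HEK293T, and SMARCA4 rose in PANC-1 and fell in HEK293T.

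At 30 rpm the difference was 2.99 for ATAD2, 1.52 for SMARCAD1, 1.43 for CHD1 and 1.16 for CHD9. It was -1.87 for KMT5C, -1.26 for SMARCA4, -1.11 for SMARCB1 and -1.10 for SMARCD3. SMARCAD1 fell in PANC-1 and rose in HEK293T, and SMARCD3 rose in both lines and more in PANC-1. Groups of 3 libraries were too small for a test of single outlying libraries.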

How the results depend on the processing

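Counts of members called stayed within 1.5 times the reported count in all 254 alternatives run, while the split into rises and falls moved with scaling as given in the results. The log2 changes followed through the alternatives were those of the members with the largest changes of each comparison, of the most abundant member of each family with ATRX, ATAD2, KDM6A, KDM6B, SMARCA4 and SMARCA2 where called against 2D in a line, and of the 4 members that fell in both lines in AggreWell. Of these values 2903 kept direction and call, 52 lost the call and 22 turned. Between the speeds in PANC-1, KMT5C turned to -0.0132 with a GC and length trend removed, and SMARCD3 lost its call (0.014 with that trend removed, 0.191 with a length trend removed, 0.233 without replicate 3 of 30 rpm). KDM1A in HEK293T AggreWell lost its call at -0.0452 with the GC and length trend removed and -0.0331 with quantile normalization, as did ARID5A between the speeds in HEK293T at 0.15 without replicate 2 of 30 rpm.

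Against 2D in PANC-1, median-ratio scaling turned CHD4 in AggreWell to -0.0251 and SMARCA1 and KDM2A at 30 rpm to -0.0894 and -0.0594. Quantile normalization turned KDM6A and SMARCA4 in AggreWell to -0.0198 and -0.0418 and ARID3B to -0.0429 at 1 rpm and -0.056 at 30 rpm. Against 2D in HEK293T AggreWell, median-ratio scaling turned KDM5C to -0.0494, SMARCC1 to -0.0286 and KDM2A to -0.00131, and quantile normalization turned KDM6A to -0.0496 and SMARCA2 to -0.116. SMARCA2 also turned to -0.0242 at 1 rpm and -0.11 at 30 rpm with quantile normalization, and to -0.078 at 30 rpm with the GC and length trend removed. KDM5C turned to 0.105 at 1 rpm and 0.143 at 30 rpm with quantile normalization and to 0.0638 and 0.118 with the GC and length trend removed. At 30 rpm SMARCC1 turned to 0.0526 with quantile normalization and KMT5A to 0.0837 with the GC and length trend removed. The cause was not tested.

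With each library left out in turn, the members called between the speeds in HEK293T numbered 22 to 27 instead of 31. In PANC-1 they numbered 51 to 55 there, 54 to 57 in AggreWell, 59 to 62 at 1 rpm and 52 to 54 at 30 rpm against 2D, and in HEK293T 48 to 50, 58 to 58 and 58 to 61. With the replicate number as a block, 58 members were called in PANC-1 AggreWell against 2D and 33 between the speeds in HEK293T, and no named member lost its call. Deviations of libraries with the same number correlated at -0.0916 to 0.106 in PANC-1 and -0.0966 to 0.43 in HEK293T, and those with different numbers at -0.169 to 0.181 and -0.32 to 0.226, so the numbers were not taken as pairs. Depth limits the low members most, such as SETDB2.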
